A study of Mus musculus with 6 samples.

Results

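The genes described here are the molecular chaperones and co-chaperones of the cytosol and mitochondria, apart from the HSP90 proteins themselves, together with the heat shock factors that control many of them. They comprised 40 listed genes, of which 38 averaged 10 or more normalised counts across all 6 libraries and were tested, among 13199 genes tested in all and 55291 in the table. The genes were listed by symbol, within chaperone classes. The 2 that were not tested were Hspa1a, which averaged under 10 normalised counts, and Hspb1, which was listed at 0 in every library; such a 0 can be a failed estimate and is not read as absence.

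The cells were LLC (Lewis lung carcinoma), a transplantable lung tumour line of the mouse, profiled by RNA sequencing. The Calr KO group (n = 3) was a population given plasmids for Cas9 and a guide RNA against calreticulin, an endoplasmic reticulum (ER) chaperone that binds glycoproteins and calcium. The control group (n = 3), labelled WT, was a population given Cas9 with a control guide. Both were grown for 10 days after delivery, spread over 3 wells, and collected 48 hours later without other treatment. The replicates were wells of 1 edited population per group, so p-values measure the spread between wells and not between independent knockouts.

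HSP70 proteins bind exposed hydrophobic stretches of unfolded proteins in a cycle driven by ATP. J proteins bring them their clients and stimulate ATP hydrolysis, and HSP110 proteins, relatives of HSP70, release the bound ADP so that the cycle can begin again. The CCT complex (also TRiC) is a closed chamber of related subunits that folds actin and tubulin, and Hspd1 with its lid Hspe1 forms the corresponding chamber in mitochondria. Many of these genes are switched on in heat shock by the transcription factor HSF1, which binds inverted repeats of the unit nGAAn, called heat shock elements.

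The label of the targeted gene was checked first. Calr was at 4467, 4216 and 4453 normalised counts in the Calr KO libraries, against 10711, 10202 and 11047 in the control libraries. The groups did not overlap, and Calr fell by 1.28 in log2 units (SE 0.04; adjusted p = 7.9e-07 by limma). Calr mRNA was thus still present in the edited population; in bulk RNA, fewer cells with the transcript and less of it per cell cannot be told apart.

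Of the 38 chaperone genes tested, 0 rose, 1 fell and 37 did not pass the test (limma, Benjamini-Hochberg adjusted p under 0.05). Among all genes tested, 0.197% were called higher and 0.0833% were called lower. The gene that fell was Hspa4l, an HSP110 protein. At an unadjusted p under 0.05, limma had 2 of the 38 genes higher (Cct6a and Dnaja2) and 2 lower (Hspa4l and Cct2), and limma with voom weights had the same numbers, with 0 called higher and 1 called lower. Over all genes tested, 4.6% were higher and 4.28% lower at that unadjusted cut. The fitted change lay above 0 for 19 genes and below 0 for 19. The median log2 change of the 38 genes was 0.0010, beside 0.00036 over all genes tested.

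These small differences had narrow intervals in limma with its variance trend. Intervals without the trend are not given. For 36 of the 38 genes, the 95% confidence interval of the change lay wholly within a 1.25-fold difference in either direction; the exceptions were Hspa1b and Hspa2, both of low level. The Calr KO and control libraries did not overlap for 3 genes that were higher in Calr KO cells (Dnajc7, Cct6a and Hspa9) and 4 that were lower (Hspa4l, Cct2, Cct7 and Tcp1). Over all genes tested, 7.57% did not overlap with Calr KO higher and 7.28% with Calr KO lower. All listed chaperone genes summed to 1.37%, 1.37% and 1.40% of the normalised counts in the Calr KO libraries, against 1.40%, 1.38% and 1.39% in the control libraries.

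**Figure D1:**
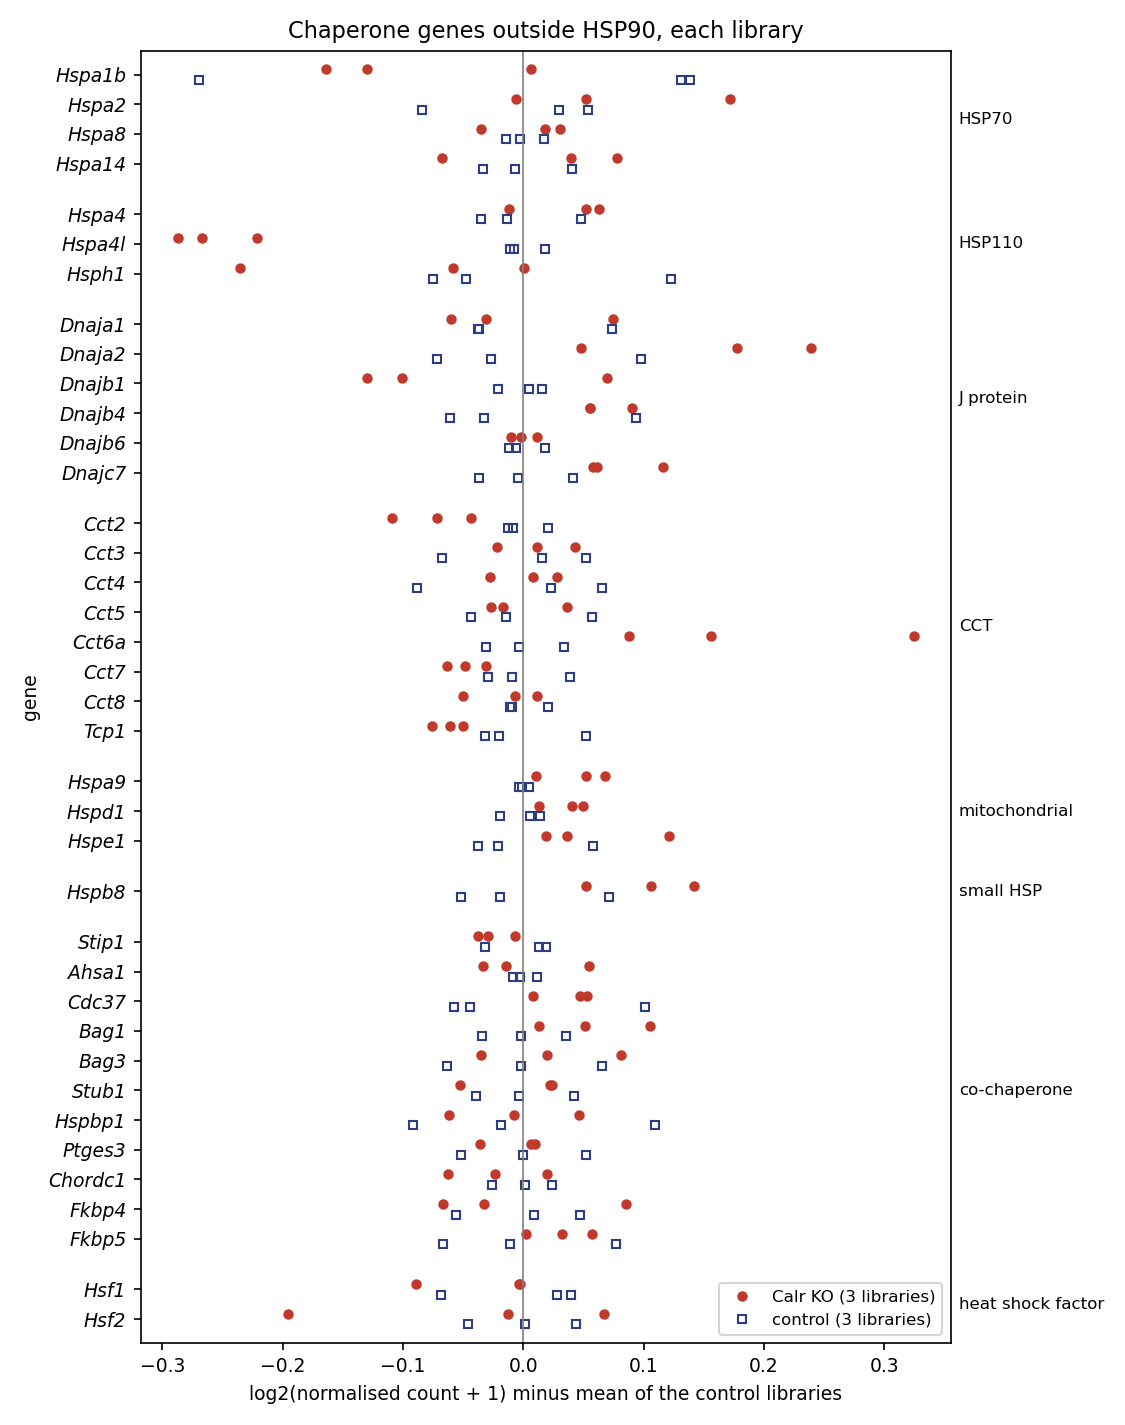
Each chaperone gene tested in each library, as log2(normalised count + 1) minus the mean of the 3 control libraries (horizontal axis, log2 units); filled circles are Calr KO libraries, open squares are control libraries, and genes are grouped by class. The 3 Calr KO libraries of Hspa4l stand apart to the left of its control libraries, while most other genes have mixed symbols within about 0.1 of 0.

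The HSP110 proteins were the class that held the gene that changed. The 3 genes, Hspa4l (Apg1), Hspa4 (Apg2) and Hsph1 (Hsp105), encode closely related proteins. Their first 60 coding bases are shown because reads from paralogs can be hard to separate; capitals mark the bases that are the same in all 3 genes (GENCODE M21 coding sequence, GRCm38, the gene's own strand).
Hspa4l, chr3:40745678-40745737, plus strand: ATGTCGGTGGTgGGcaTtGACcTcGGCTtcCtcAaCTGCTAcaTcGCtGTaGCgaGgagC
Hspa4, chr11:53300107-53300166, minus strand: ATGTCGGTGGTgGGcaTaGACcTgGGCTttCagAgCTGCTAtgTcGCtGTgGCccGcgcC
Hsph1, chr5:149636017-149636076, minus strand: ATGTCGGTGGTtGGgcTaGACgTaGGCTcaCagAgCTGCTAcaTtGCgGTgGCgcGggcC
Of these 60 bases, 39 are the same in all 3 genes. Hspa4l is identical to Hspa4 at 46 of 60 positions and to Hsph1 at 43. Even so, no stretch of 31 bases anywhere in the annotated Hspa4l transcripts occurs in a transcript of Hspa4 or of Hsph1, so no exact match of that length is shared between them.

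Hspa4l, described as the HSP110 form abundant in testis and induced by osmotic stress or heat, lies on chromosome 3 (40744495 to 40796103, plus strand, ENSMUSG00000025757.12). It was at 8405, 8522 and 8798 normalised counts in the Calr KO libraries, against 10204, 10387 and 10178 in the control libraries. Every Calr KO library lay below every control library, and the 3 values within each group were close together. The group means were 8575 ± 202 in Calr KO cells and 10256 ± 114 in control cells (SD, n = 3 each). Hspa4l thus fell by 0.26 on the log2 scale (SE 0.03, 95% confidence interval -0.32 to -0.20, limma adjusted p = 0.0047), which is 1.20-fold lower in Calr KO cells. Without the variance trend in limma the estimate stayed at -0.26 and the adjusted p was 0.367, so the call was lost under that setting. With any 1 library left out, the change lay between -0.28 and -0.24, and the highest adjusted p was 0.0368.

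The other HSP110 genes did not pass the test. Hspa4, the widely expressed form, was at 5750, 5794 and 5500.0 normalised counts in the Calr KO libraries and 5735, 5494 and 5413 in the control libraries (log2 change 0.03, limma adjusted p = 0.837). Hsph1, the form most closely tied to heat shock, was at 4252, 3761 and 4429 in the Calr KO libraries and 4820, 4204 and 4283 in the control libraries. Both genes overlapped between the groups; for Hsph1 the spread within each group was wide, with a log2 change of -0.10 and a 95% confidence interval from -0.25 to 0.06 (limma adjusted p = 0.746). The 3 genes summed to 18407, 18077 and 18727 normalised counts in the Calr KO libraries, against 20758, 20085 and 19874 in the control libraries, with no overlap. This sum contains Hspa4l, which was already called lower, so it is no separate sign of a fall in the class.

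Ratios within a library set Hspa4l, which had already passed the test, against its relatives independently of the library's scale. The log2 ratio of Hspa4l to Hspa4 averaged 0.59 ± 0.07 in Calr KO cells and 0.89 ± 0.05 in control cells (SD, n = 3 each), a difference of -0.29. The groups did not overlap, and the exact permutation test gave p = 0.1 (two-sided), the smallest that 3 against 3 libraries allow. Because Hspa4l had already been called lower without overlap, this p-value is no separate sign of its fall. Its adjusted p over 6 ratios was 0.12. Those 6 include ratios, given below, to ER genes already called higher, so no weight is put on the adjusted value. The log2 ratio of Hspa4l to Hsph1 averaged 1.05 ± 0.11 in Calr KO cells and 1.21 ± 0.12 in control cells, and there the groups overlapped (exact permutation p = 0.2, adjusted p = 0.2).

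Which HSP110 gene had the highest level per length depended on the length used. Per kilobase of coding sequence, Hspa4l led with 3411 ± 80.3 normalised counts in Calr KO cells and 4080 ± 45.3 in control cells. Hspa4 followed with 2249 ± 62.8 in Calr KO cells and 2196 ± 66.1 in control cells, and Hsph1 came last with 1611 ± 134 in Calr KO cells and 1723 ± 130.2 in control cells. Per kilobase of the whole chosen transcript, the Hspa4l level was the lowest of the 3 genes in both groups. It was at 905 ± 21.3 in Calr KO cells and 1082 ± 12.03 in control cells. The transcript chosen was the longest of those with the longest coding sequence, 9479 bases for Hspa4l, and other transcripts were not tried.

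**Figure D2:**
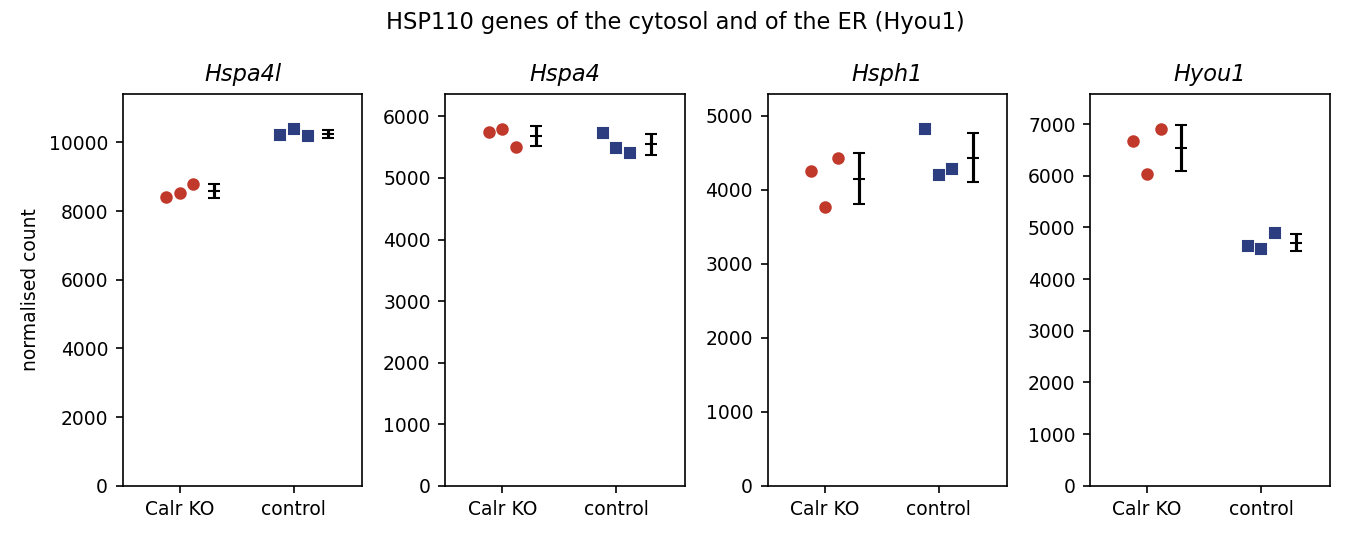
Normalised counts (vertical axis, linear from 0, own scale in each panel) of the 3 HSP110 genes of the cytosol and of Hyou1, their relative in the ER, with Calr KO libraries as circles, control libraries as squares, and the mean ± SD beside each group. Hspa4l averaged 8575 in Calr KO cells and 10256 in control cells without overlap, Hspa4 and Hsph1 overlap, and Hyou1 averaged 6534 in Calr KO cells and 4703 in control cells without overlap.

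Among the HSP70 genes, 0 of 4 tested passed the test in either direction. Hspa8 (Hsc70), the constitutive HSP70 of the cytosol and the most abundant member of its class, was at 41742, 40230.5 and 42112 normalised counts in the Calr KO libraries, against 41704, 41132 and 40819.8 in the control libraries. The groups were intermixed. Its log2 change was 0.0048 with a 95% confidence interval of -0.04 to 0.05 (limma adjusted p = 0.969), and per kilobase of coding sequence its level was 21342 ± 514 in Calr KO cells and 21269 ± 231 in control cells. On that scale it stood above every other chaperone gene of the set for which a coding length was taken.

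The heat-inducible HSP70 genes were at low levels in both groups. Hspa1b was at 324, 294 and 287 normalised counts in the Calr KO libraries, against 355, 267 and 353 in the control libraries. The groups overlapped, with a log2 change of -0.10 and a wide 95% confidence interval of -0.37 to 0.18 (limma adjusted p = 0.866). Hspa1a averaged 2.73 ± 3.03 normalised counts in Calr KO cells and 8.70 ± 3.61 in control cells (SD, n = 3 each) and was not tested. Of the 31-base stretches in Hspa1a transcripts, 63.8% also occur in Hspa1b, and 67.6% of those in Hspa1b occur in Hspa1a, so the division of reads between these copies is uncertain. Summed, Hspa1a and Hspa1b had a log2 change of -0.12 (limma adjusted p = 0.821).

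The remaining HSP70 genes are Hspa2, abundant in developing sperm, and Hspa14, linked to the ribosome. Hspa2 was at 126, 137 and 121 normalised counts in the Calr KO libraries and 127, 115 and 124 in the control libraries. Hspa14 was at 1299, 1334 and 1206 in the Calr KO libraries and 1235, 1300.0 and 1258 in the control libraries. Both overlapped between the groups, with log2 changes of 0.07 and 0.02.

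J proteins, the partners that direct HSP70 to its clients, had 0 of 6 genes past the test, with log2 changes from -0.05 to 0.15 and a median of 0.03. Dnaja1, the J protein with the most normalised counts, was at 4216, 4535 and 4133 in the Calr KO libraries and 4533, 4199 and 4197 in the control libraries. Dnaja2, also a J protein of the DNAJA type, had the largest change of the class. It was at 2744, 3003 and 3132 in the Calr KO libraries, against 2606, 2525 and 2841 in the control libraries, with a log2 change of 0.15, a 95% confidence interval of 0.02 to 0.29 and a limma adjusted p of 0.509. The groups of both genes overlapped.

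Dnajb1 (Hsp40), a heat-induced J protein, was at 995, 1016 and 1143 normalised counts in the Calr KO libraries and 1073, 1101 and 1093 in the control libraries. Dnajb6, which holds back aggregation of polyglutamine proteins, was at 1751, 1740.4 and 1766 in the Calr KO libraries and 1775, 1745 and 1739 in the control libraries. Its log2 change was -0.00010. Dnajc7, which joins HSP70 and HSP90 through TPR repeats, was at 1274, 1276 and 1326 in the Calr KO libraries and 1219, 1192 and 1259 in the control libraries. Its groups did not overlap, yet it missed the threshold (log2 change 0.08, limma adjusted p = 0.720). Dnajb4 averaged 1018 ± 14.5 in Calr KO cells and 973 ± 56.4 in control cells (SD, n = 3 each).

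The 8 subunits of the CCT chamber had 0 genes past the test in either direction, with a median log2 change of -0.0087. They summed to 58539.8, 58360.1 and 59433 normalised counts in the Calr KO libraries, against 59890.1, 58961 and 59122 in the control libraries. The sums overlapped. Each ring of the assembled chamber contains every kind of subunit, and the 7 subunits besides Cct6a lay between -0.07 and 0.01 on the log2 scale.

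Cct6a had the largest change of the class. It was at 4496, 4713 and 5297 normalised counts in the Calr KO libraries, against 4220, 4140.2 and 4330.5 in the control libraries. The groups did not overlap, and Calr KO replicate 3 was well above the other Calr KO libraries. The log2 change was 0.19 (95% confidence interval 0.06 to 0.32, unadjusted p = 0.0080, limma adjusted p = 0.364), and it lay between 0.12 and 0.24 with any 1 library left out. Exons of Cct6a overlap those of Psph, a serine synthesis enzyme gene on the other strand, and no label says whether the counting used strand. Psph averaged 638 normalised counts in Calr KO cells and 685 in control cells.

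Cct2, the subunit with the most normalised counts, was at 11555, 12088 and 11857 in the Calr KO libraries, against 12642, 12350.1 and 12389.7 in the control libraries. The groups did not overlap, and the gene missed the threshold with a log2 change of -0.07 (95% confidence interval -0.13 to -0.02, unadjusted p = 0.019, limma adjusted p = 0.465). Tcp1 (the alpha subunit) and Cct7 were also lower in every Calr KO library than in any control library, with log2 changes of -0.06 and -0.05, and did not pass the test.

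Per kilobase of coding sequence, the subunits were not equal in level. Cct2 stood highest at 7373 ± 167 normalised counts in Calr KO cells and 7764 ± 98.8 in control cells (SD, n = 3 each). Cct3 came next, at 5137 ± 116 in Calr KO cells and 5101 ± 216 in control cells. Tcp1, Cct4 and Cct5 lay so near each other in Calr KO cells, at 4668 ± 42.2, 4670.4 ± 91.2 and 4642 ± 109, that they did not differ beyond their spread. In control cells these 3 subunits were at 4876 ± 154, 4665 ± 253 and 4651 ± 167. Cct8 was at 3511 ± 76.5 in Calr KO cells and 3547 ± 44.1 in control cells, and Cct7 was lowest at 3104 ± 34.8 in Calr KO cells and 3209 ± 78.4 in control cells. GENCODE M21 lists Cct6a as a processed transcript without a coding transcript. No coding length was therefore taken for Cct6a, and no level per length is given for it.

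**Figure D3:**
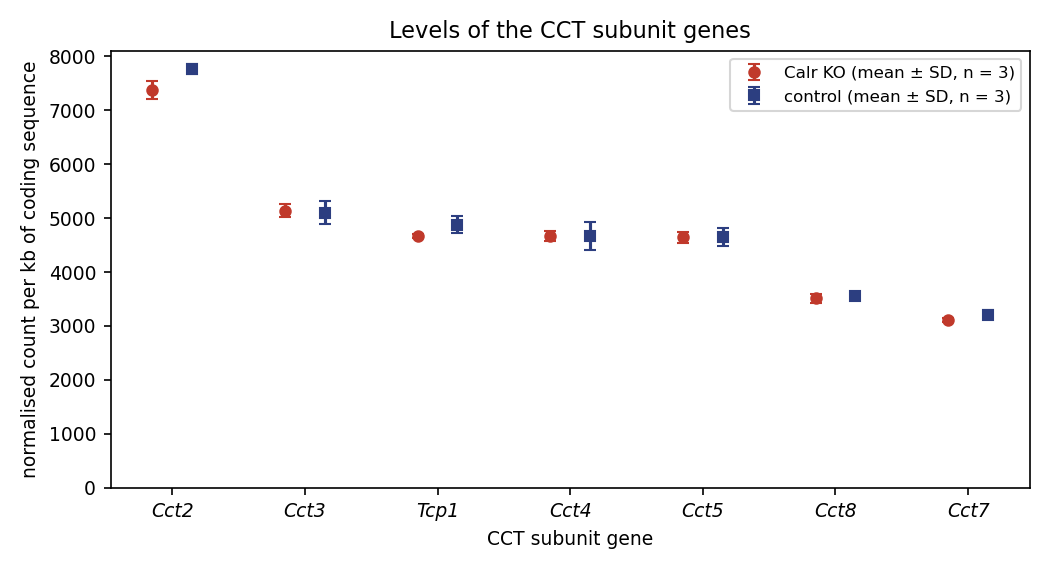
Normalised counts per kilobase of coding sequence (vertical axis) for the 7 CCT subunits with a coding length, as the mean ± SD of 3 libraries, with Calr KO (circles) left of control (squares). Cct2 is highest and Cct7 lowest in both groups, and for each subunit the distance between the groups is small beside the distance from Cct2 to Cct7.

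The 3 mitochondrial chaperones each had a fitted change slightly above 0, and 0 of 3 passed the test. Hspd1 (Hsp60), the chamber protein, was at 17497, 17839.5 and 17953 normalised counts in the Calr KO libraries, against 17408, 17109 and 17514 in the control libraries. Hspe1 (Hsp10), its lid, was at 3945, 3995 and 4237 in the Calr KO libraries and 4055, 3795 and 3839.8 in the control libraries. The groups overlapped for both genes, and the log2 changes were 0.03 and 0.06. Hspa9 (mortalin), the HSP70 of the mitochondrial matrix, was at 8224, 8466 and 8558 in the Calr KO libraries and 8192, 8144 and 8157 in the control libraries. Its groups did not overlap, with a log2 change of 0.04 and a limma adjusted p of 0.713.

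By the starts used for the promoter windows below, Hspd1 and Hspe1 start on opposite strands within 216 bases of each other and share a promoter region. In the GENCODE annotation, exons of Hspd1 and Hspe1 overlap, and no label says whether the counting used strand. Per kilobase of coding sequence, Hspe1 was at 13264 ± 509 normalised counts in Calr KO cells and 12734 ± 455 in control cells, and Hspd1 was at 10333 ± 138 in Calr KO cells and 10089 ± 122 in control cells. Hspa9 was lower, at 4132 ± 84.8 in Calr KO cells and 4008 ± 12.2 in control cells.

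Of the small heat shock proteins, which hold unfolded proteins without ATP, Hspb8 was tested. It was at 1503, 1466 and 1412 normalised counts in the Calr KO libraries and 1430.5, 1314 and 1344 in the control libraries. The groups overlapped by 1 control library (log2 change 0.10, limma adjusted p = 0.642). Bag3, the partner of Hspb8 in selective autophagy, averaged 726 ± 29.2 in Calr KO cells and 715 ± 32.0 in control cells (SD, n = 3 each).

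Co-chaperones had 0 of 11 genes past the test, and all had limma adjusted p-values of at least 0.810. Stip1 (Hop), which links HSP70 to HSP90 and had the most normalised counts of the class, was at 6428, 6388 and 6528 in the Calr KO libraries and 6643, 6617 and 6416 in the control libraries. Bag1, a nucleotide exchange factor of HSP70 and the co-chaperone with the largest change, was at 1149.8, 1078 and 1108 in the Calr KO libraries and 1044, 1068 and 1096 in the control libraries. Both genes overlapped between the groups, with log2 changes of -0.02 and 0.06. The other co-chaperones were Ahsa1 (an activator of the HSP90 ATPase), Cdc37 (which brings kinases to HSP90), Stub1 (the ubiquitin ligase CHIP), Hspbp1 (an exchange factor of HSP70), Ptges3 (p23), Chordc1, Bag3 and the immunophilins Fkbp4 and Fkbp5. Their log2 changes lay within the range of the class, from -0.02 to 0.06.

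The heat shock factors had 0 of 2 genes past the test. Hsf1, the main activator of the heat shock response, was at 879, 878 and 828 normalised counts in the Calr KO libraries and 905, 839.7 and 898 in the control libraries. Hsf2, a related factor, was at 479, 543 and 574 in the Calr KO libraries and 549, 565 and 531 in the control libraries. The groups overlapped for both genes, with log2 changes of -0.03 and -0.05. Activity of these factors is set largely by the protein and was not measured here.

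**Figure D4:**
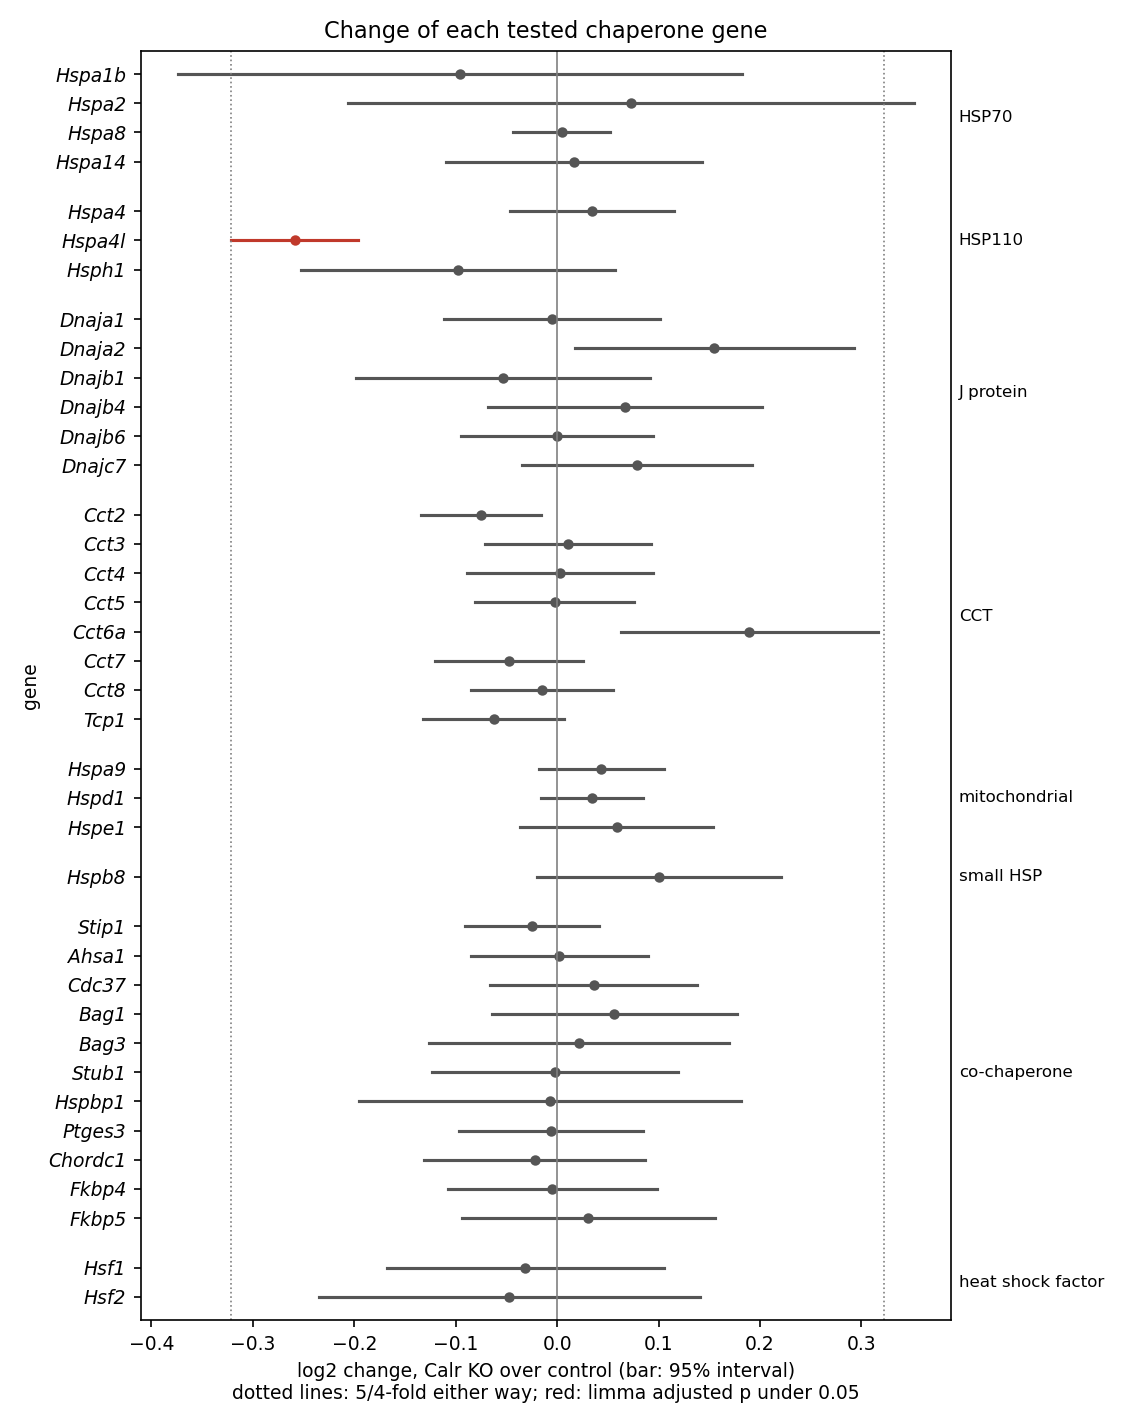
Log2 change of each chaperone gene tested, Calr KO over control (horizontal axis), with its 95% confidence interval from limma with the variance trend. Genes are grouped by class, and the dotted lines stand at a 1.25-fold difference in either direction. Hspa4l, at -0.26, is the gene past the adjusted threshold, and 36 of 38 intervals stay between the lines, with that of Hspa4l just inside.

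Promoter windows offered a grouping of the genes that did not use their values. Heat shock elements were sought in the windows from 250 bases before to 50 after each gene's start (RefSeq, GRCm38.p6), which were matched for 36 of the 40 listed genes. A pair of inverted units, GAANNTTC or TTCNNGAA, was present in 18 of the 36 genes (50%), beside 17.0% of the 27025 genes with such windows. A run of 3 inverted units with a gap of 2 bases between each was present in 5 of the 36 genes (13.9%), beside 0.662% of all. The longer motif contains the shorter one, and both strands are covered because each motif is read as its own inverse or in both forms. A match is a run of letters and not a binding site.

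The 5 genes with 3 units were Hspd1, Hspe1, Hsph1, Chordc1 and Dnajb6. Stretches of 30 bases around the element are shown because these genes carry the most complete elements of the set; capitals mark the inverted units with their gaps, on the gene's strand. The Hspd1 window holds the same element as that of Hspe1.
Hspe1, chr1:55088053-55088082, plus strand: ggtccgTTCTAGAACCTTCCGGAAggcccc
Hsph1, chr5:149636287-149636316, minus strand: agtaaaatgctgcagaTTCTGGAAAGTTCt
Chordc1, chr9:18292260-18292289, plus strand: ccgGAACGTTCGGGAAAATTCCTGAAgcag
Dnajb6, chr5:29735844-29735873, plus strand: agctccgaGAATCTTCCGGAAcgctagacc
Capitals span 5 units in Chordc1, 4 in Hspe1 and 3 in Hsph1 and Dnajb6.

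The medians of the genes with and without such elements all lay near 0. The 5 genes with 3 units had a median log2 change of -0.00010 (from -0.10 to 0.06). The 11 tested genes with only a pair of units had a median of -0.0022, and the 18 tested genes with neither, Hspa4l among them, had a median of -0.0020. Of these 34 genes with windows, 0 rose, and only Hspa4l fell, by the limma test given above.

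Related gene lists outside the set were read in the same fit. Other genes induced by HSF1, including the cytosolic HSP90 genes and ubiquitin genes, had 0 of 7 tested genes past the test in either direction (median log2 change 0.02). Other cytosolic J proteins had 0 of 10 (median 0.03), and prefoldin with the CCT cofactors, which deliver and release clients of the chamber, had 0 of 9 (median 0.04). The mitochondrial partners and proteases had 0 of 12 (median 0.0036), and other co-chaperones had 0 of 17 (median -0.02). At an unadjusted p under 0.05, limma had 1 higher among the HSF1-induced genes, 1 higher and 1 lower among the other J proteins, and 0 in the remaining 3 lists, beside 4.6% higher and 4.28% lower over all genes tested.

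Chaperones of the ER, a list drawn up with their changes known, were set beside these genes in the same fit. Of 14 tested, 8 rose, 0 fell and 6 did not pass the test, with a median log2 change of 0.48. The 8 were Hspa5, Hsp90b1, Hyou1, Dnajb11, Dnajc3, Sdf2l1, Manf and Creld2, between 1.39-fold and 1.73-fold higher in Calr KO cells. The 6 that did not pass were Dnajb9, Dnajc10, Sil1, Hspa13, Dnajc1 and Sec63. Of the 14 tested, the 8 called genes had a 95% confidence interval wholly above 1.25-fold and the other 6 did not. Among the 38 chaperone genes of the cytosol and mitochondria, 0 had such an interval.

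The same protein families could be set side by side across compartments within each library. The log2 ratio of Hspa8, the cytosolic HSP70, to Hspa5 (BiP), the HSP70 of the ER, averaged 0.49 ± 0.05 in Calr KO cells and 0.99 ± 0.07 in control cells (SD, n = 3 each). For Hspa9 against Hspa5 it averaged -1.81 ± 0.09 in Calr KO cells and -1.35 ± 0.07 in control cells. Both cytosolic and mitochondrial HSP70 were thus lower relative to BiP in Calr KO cells. For the HSP110 genes Hsph1 and Hyou1, of which Hyou1 acts in the ER, it averaged -0.66 ± 0.02 in Calr KO cells and -0.09 ± 0.13 in control cells. For the J proteins Dnaja1 and Dnajb11, of which Dnajb11 acts in the ER, it averaged 1.56 ± 0.17 in Calr KO cells and 2.08 ± 0.10 in control cells. All 4 ratios were lower in every Calr KO library than in any control library, with differences of -0.50, -0.46, -0.57 and -0.52. Since Hspa5, Hyou1 and Dnajb11 were already among the genes called higher, these ratios are a description and no test is drawn from them. They were part of the adjustment over 6 ratios given above.

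**Figure D5:**
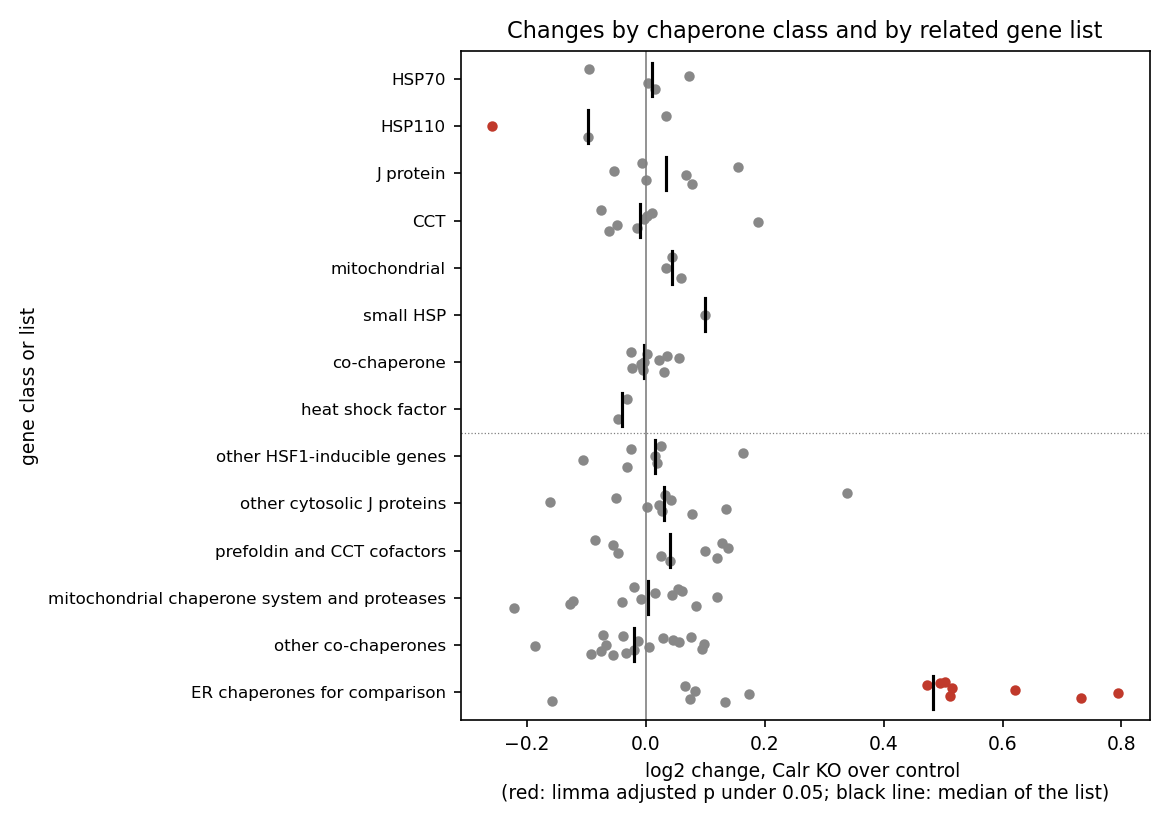
Log2 change of every gene tested, Calr KO over control (horizontal axis), by chaperone class above the dotted line and by related list below it; black bars are medians and coloured points passed the limma threshold. Hspa4l is the coloured point among the classes, and the 8 coloured points among the ER chaperones lie between 0.47 and 0.79.

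Precision and sample identity were as follows. The 6 libraries held an estimated 13571210 to 14918661 reads. Over the members tested, the coefficient of variation between wells had a median of 2.82% in Calr KO cells and 3.15% in control cells. It was lowest for Dnajb6 among Calr KO libraries (0.748%) and for Hspa9 among control libraries (0.304%), and highest for Hsf2 in Calr KO cells (9.18%) and Hspa1b in control cells (15.4%). Mitochondrially encoded genes took 2.89% to 2.97% of Calr KO libraries and 2.78% to 2.80% of control libraries, and their part in the values of the mitochondrial chaperones was not tested. Of the epithelial markers, Krt8 and Krt18 were detected while Epcam and Krt19 were at 0 in every library. Cdh1 was very low, averaging 1.72 normalised counts in Calr KO cells and 2.97 in control cells. Summed mesenchymal markers ran from 44031 to 46117 normalised counts in Calr KO libraries and from 48162 to 50398 in control libraries, and summed epithelial markers ran from 4961 to 5240.2 in Calr KO libraries and from 4632 to 4932 in control libraries. Most of the epithelial sum was Krt8, which averaged 4770 in Calr KO cells and 4472 in control cells. Most of the mesenchymal sum was Vim, which averaged 36379 in Calr KO cells and 39343 in control cells. The part of these markers in the results was not tested. Summed macrophage markers ran from 65.1 to 113 in Calr KO libraries and from 75.5 to 97.1 in control libraries. Endothelial markers ran from 46.1 to 60.3 in Calr KO libraries and from 37.3 to 45.2 in control libraries. Fibroblast markers ran from 2117 to 2464 in Calr KO libraries and from 1975 to 2446 in control libraries. Lymphocyte markers summed to at most 3.15 in Calr KO libraries and 1.03 in control libraries, and 0 genes of any marker list passed the limma test. At an unadjusted p under 0.05, limma had 1 of 2 tested epithelial markers (Krt8) and 1 of 4 fibroblast markers (Dcn) higher. It had 2 of 3 tested mesenchymal markers lower, Vim and S100a4, and neither overlapped between the groups. S100a4 had a log2 change of -0.23 (limma adjusted p = 0.116). Over all genes tested, the shares were 4.6% higher and 4.28% lower.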

How the data were processed

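Gene expression was measured by RNA sequencing of total RNA taken up in TRIzol, with libraries made by a SMARTER mRNA-seq kit, all labelled as 1 batch. Per the labels, the authors deposited gene counts scaled by DESeq2 between libraries, so each value is a signal and not a raw count. Tools listed in the submitters' processing notes are DESeq2 1.34.0, Salmon 0.14.1 and STAR 2.6.1d, with the build mm10 and no statement of roles or order. No annotation release is stated there.

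The worth of 1 read was taken as the most frequent low value in a library (0.945 to 1.04). Between 3.45% and 4.31% of values of 100 to 1000 normalised counts were whole multiples of it within 0.02, so whole reads were not recovered and no count test was run.

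The log2(value + 1) of each value entered a linear model (limma 3.58.1, R 4.3.3) with a variance trend, two-sided, over all 13199 genes with a mean of at least 10, adjusted by Benjamini-Hochberg with a threshold of 0.05. Fold changes on this scale understate those of low genes. Every gene of the set is accounted for; full values were required for Calr, for genes past the threshold, and for the most abundant and the most changed gene of each class, while other genes with values were added for their roles or because their groups did not overlap. The members and lists were chosen with earlier results of these data known. Annotation, lengths and 31-base comparisons are from GENCODE M21 (GRCm38). Lengths are those of 1 annotated coding transcript for each gene except Cct6a. It was the transcript with the longest coding sequence and, among equals, the longest in total. Alternatives were other pseudocounts, filters, weights, a replicate block and leaving out each library.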

Additional observations from a re-analysis of the deposited data

How the results depend on the processing

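The call of Hspa4l passed in 16 of 17 alternatives. It was lost without the variance trend (log2 change -0.26, adjusted p = 0.367), where 2 genes in all and 0 chaperone genes were called lower or higher, beside 37 genes in all with the trend. With 1 library left out, 20 to 34 genes in all were called. That count moved by over 1.5 times on leaving out Calr KO replicate 1 (20 genes) or 3 (21 genes), or control replicate 2 (22 genes) or 3 (22 genes); the cause was not tested, and each such fit has fewer samples. In each of these 6 fits 1 chaperone gene was called lower, Hspa4l, and 0 higher. Over the alternatives, the sign turned for 16 of the 38 chaperone genes tested, with log2 changes between -0.05 and 0.03, and 0 of them passed the test. Among the genes given in full, Hspa8 ran from -0.0083 to 0.025, Dnaja1 from -0.045 to 0.032 and Hsf2 from -0.10 to 0.027 with 1 library left out, and the median of the members from -0.0029 to 0.011. The turned values were -0.0020, -0.0083 and -0.0022 for Hspa8, on leaving out Calr KO replicate 1, then 3, and then control replicate 3. For Dnaja1 they were 0.0075, 0.022 and 0.032 on leaving out Calr KO replicate 1, then 3, and then control replicate 1, and for Hsf2 0.027 without Calr KO replicate 1. Deviations of same-numbered libraries correlated at -0.06, -0.01 and 0.0014, so no shared deviation was seen. These values cannot settle whether same-numbered wells were handled together. With the replicate number as a block, 26 genes were called, among them 1 chaperone gene lower (Hspa4l, adjusted p = 0.0228). Hspa1a was too low to test, and Hspa1b and Hspa2 had intervals beyond a 1.25-fold difference.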

Other observations

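Several rows of the table belong to near copies of the chaperone genes, which can share reads with them. Hspd1-ps3 averaged 648 normalised counts in Calr KO cells and 652 in control cells, and Ptges3-ps averaged 138 in Calr KO cells and 143 in control cells. Dnajb6-ps averaged 30.7 in Calr KO cells and 24.4 in control cells. How the counting divided reads between each copy and its parent gene is not stated in the labels.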
